A study of Caenorhabditis elegans with 15 samples.

Results

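The sma-3 mutant of the nematode Caenorhabditis elegans was compared with the wild-type strain N2 in 10 of the 15 libraries of the study, 5 of each genotype, taken by the genotype in their labels. Each library held poly-A RNA from whole animals of the L2 stage, the second larval stage, grown at 20 °C on agar plates with E. coli as food. The comparison addresses which transcripts change when a Smad protein of the DBL-1 signalling pathway is mutated. The allele of the sma-3 strain, and whether replicates were separate cultures, were not given in the sources used here, so p-values measure the spread between these samples. The other 5 libraries came from sma-6 mutants grown in the same way. They entered the low-count filter, the scaling and the estimate of the spread between replicates, but were not themselves compared. Whole animals were extracted in bulk, so fewer cells of a type and less RNA per cell cannot be told apart.

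The DBL-1 pathway is a bone morphogenetic protein pathway. The ligand DBL-1, made mostly by neurons, binds the receptors SMA-6 and DAF-4, and these activate the Smad proteins SMA-2 and SMA-3, which act in the nucleus with SMA-4 and change transcription. In C. elegans the pathway is best known for body size: mutants that lack it are small, mutants with too much of it are long, and activity in the epidermis that makes the cuticle accounts for much of this. It is also known for roles in male tail patterning, fat storage and resistance to bacteria.

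Total counts per library lay between 16.5 M and 24.2 M, apart from wild type replicate 2 at 48.3 M. Levels are given as CPM, counts scaled to a common library size, after TMM scaling, which corrects for composition, and in the order wild type replicates 1, 2, 3, 4, 5 and sma-3 replicates 2, 3, 4, 5, 9. Replicate libraries differed beyond sampling noise in all 20 pairs, with a chi-square per degree of freedom of at least 5.12. Wild type replicate 5 stood apart from its group. Measured as a root-mean-square distance in log2 CPM, it lay on average 0.459 from its own group and 0.443 from the mutants. Each of the remaining wild-type libraries lay nearer to its own group (0.340 to 0.400) than to the mutants (0.420 to 0.461). The distance of wild type replicate 5 to the mutants was thus within the span of the others, and its distance to its own group was not. Wild type replicate 3 stood apart in yolk protein transcripts, which are known from adults: the 6 vitellogenin genes summed to 226 CPM there and to between 5.57 and 15.9 CPM in the other 9 libraries, counting CPM over library totals. Results are therefore given with and without wild type replicate 5, and a dependence on wild type replicate 3 is named for vit-6 and several lists.

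The transcript of the mutated gene was reduced but present. sma-3 (WBGene00004857, WBcel235 chromosome III, 6860974 to 6863968, minus strand) had levels of 26.3, 27.9, 22.6, 32.5 and 25.5 CPM in the wild type and 10.18, 9.47, 10.8, 10.204 and 8.86 CPM in the mutants. The groups did not overlap, and the mutants held 36.8% of the wild-type mean (log2 fold change -1.44 ± 0.09, adjusted p = 2.3e-08). Here and below, ± after a log2 fold change is the standard error from edgeR's quasi-likelihood fit, p-values are Benjamini-Hochberg adjusted over all genes tested in edgeR, and ± after a level is the SD over 5 libraries. Wild type replicate 5 had a wild-type level of sma-3, so by this gene its label was not contradicted.

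Within the DBL-1 pathway, transcripts of a receptor and of the Smads were lower in the mutants and those of lon-1 and sma-10 were higher. sma-6, which encodes the type I receptor, was at 43.3, 44.1, 40.3, 47.7 and 37.2 CPM in the wild type and 23.2, 23.9, 25.1, 27 and 25.1 CPM in sma-3 mutants (log2 fold change -0.77 ± 0.07, adjusted p = 2.6e-06). Every mutant library lay below every wild-type library. The partner Smad gene sma-2 was at 16.2, 18.1, 19.3, 19.3 and 18.9 CPM against 11.1, 8.95, 13, 11.5 and 12.203 CPM, again without overlap (log2 fold change -0.69 ± 0.10, adjusted p = 0.00032). sma-4, the co-Smad gene, fell by less and its libraries overlapped, from 51.9 ± 3.16 to 45 ± 3.93 CPM (mean ± SD, n = 5 each, with log2 fold change -0.20 ± 0.06, adjusted p = 0.042). lon-1, a secreted protein of the CRISP family whose loss makes animals long, was at 105, 104.2, 128, 120.1 and 137 CPM in the wild type and 225, 182, 190.2, 185 and 191 CPM in the mutants (log2 fold change 0.71 ± 0.08, adjusted p = 3.2e-05). The lowest mutant library exceeded the highest wild-type library, which was wild type replicate 5. sma-10, which encodes a membrane protein with immunoglobulin repeats that binds the receptors, rose from 34.5 ± 5.3 to 46.1 ± 6.09 CPM (log2 fold change 0.41 ± 0.12, adjusted p = 0.032).

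In all, 2 of the 20 pathway genes tested were called higher and 4 lower, where called means an adjusted p under 0.05. Over all 13720 genes tested 14.6% were called, 4.4% higher and 10.2% lower. With library totals as the scaling, the pathway balance turned to 5 higher and 3 lower, and sma-4 no longer passed. RLE factors, another correction for composition, gave 2 higher and 3 lower. The 14 pathway genes that did not pass with TMM had log2 fold changes between -0.16 (mab-31) and 0.30 (rnt-1). Among them the ligand gene dbl-1 was at 25, 25.8, 24.3, 26 and 24.8 CPM in the wild type and 27, 29.1, 30.1, 35.1 and 27.4 CPM in the mutants (adjusted p = 0.15), and the mutant values all lay above the wild-type values. The receptor gene daf-4 (0.01 ± 0.07) and sma-9, which encodes the Schnurri cofactor (0.00 ± 0.08), had fold changes close to 0, as did the glypican gene lon-2 (-0.10 ± 0.09) and the ligand modulator crm-1 (0.10 ± 0.06). The tetraspanin genes tsp-12, tsp-14 and tsp-21, with values of -0.08, 0.18 and 0.09, and the co-receptor genes drag-1 (-0.08) and unc-40 (0.12) did not pass, nor did the proteases sup-17 (-0.03) and adt-2 (-0.13). In the separate dauer pathway, which shares DAF-4, the ligand gene daf-7 rose from 65 ± 2.05 to 82 ± 4.96 CPM (log2 fold change 0.34 ± 0.09, adjusted p = 0.015) and the other 5 genes tested did not pass.

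**Figure D1:**
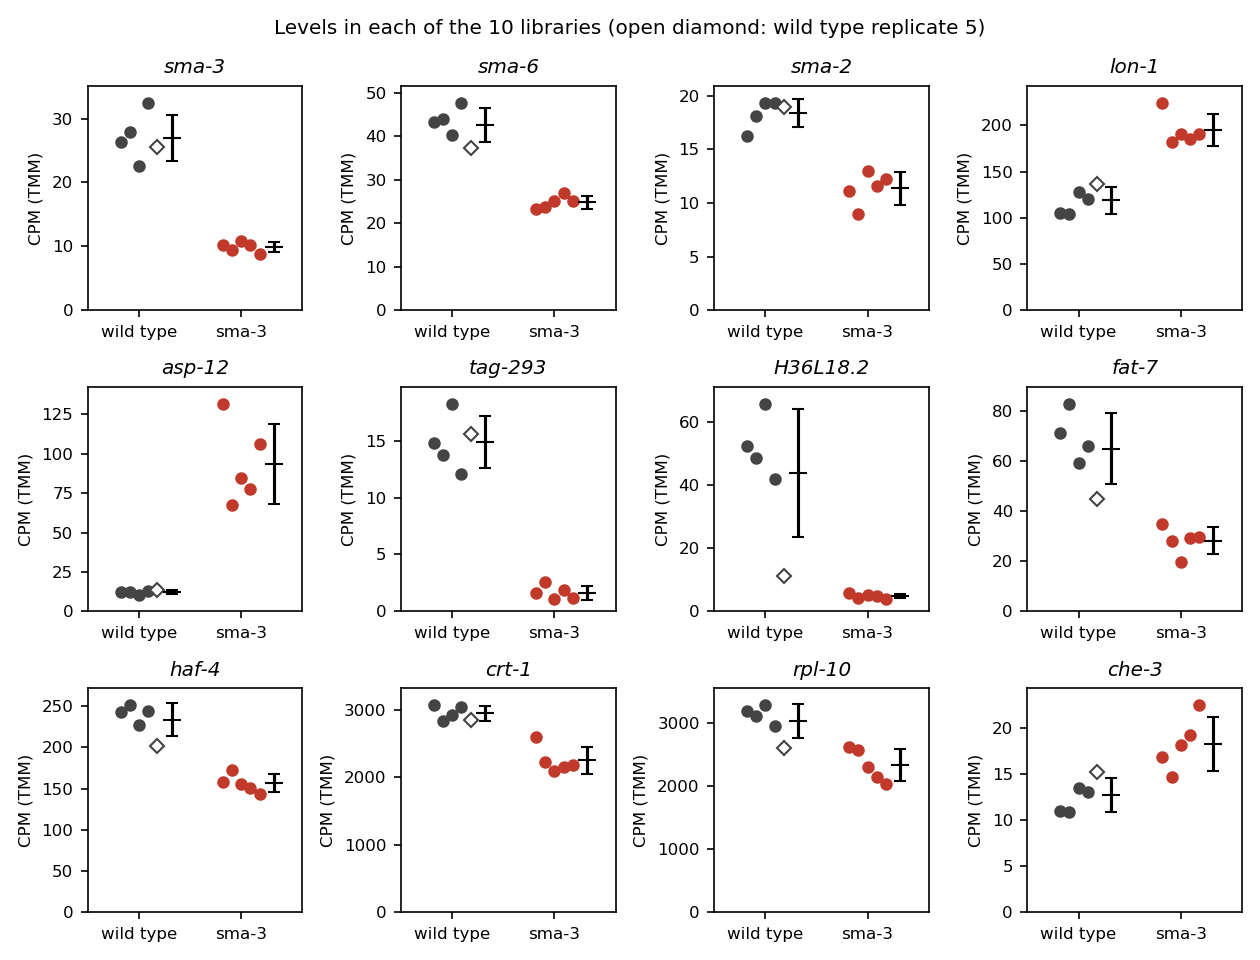
Levels of 12 genes in each library (vertical axes, TMM-scaled CPM, from 0), with wild-type libraries in grey, sma-3 libraries in red and wild type replicate 5 as an open diamond; the bar beside each group is the mean and SD over 5 libraries. The sma-3 libraries of sma-3 (8.86 to 10.8 CPM), sma-6 and sma-2 lie below, and those of lon-1 and asp-12 above, all wild-type libraries, while wild type replicate 5 sits near the mutants for H36L18.2 (11.3 CPM).

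Over all genes, the changes were many and small. Of 13720 genes tested, 1997 were called, 603 higher and 1394 lower in sma-3 mutants, and 1898 of them (95.04%) changed by less than 2-fold. Over the called genes, the absolute log2 fold change had a median of 0.34. By size, 911 called genes changed by under 1.25-fold, 762 by 1.25 to 1.5-fold and 225 by 1.5 to 2-fold. Genes that fell outnumbered those that rose under 1.25-fold (678 against 233) and from 1.25 to 1.5-fold (574 against 188), while at 2-fold or more 63 rose and 36 fell. The excess of falls depended on the scaling: with library totals in place of TMM factors, 65.9% of 2145 called genes were higher, against 30.2% with TMM, although the median log2 fold change of all genes moved by only 0.083. In 1084 of the called genes (54.3%) no mutant library fell within the wild-type range and the ranges were disjoint. Of all genes tested 3.34% lay higher without overlap and 6.36% lower. The number of calls also depended on single libraries: it was 3069 without wild type replicate 5, but 1304, 1156 and 1247 without wild type replicates 1, 2 and 3, and 1249 without sma-3 replicate 9, each more than 1.5 times from 1997.

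**Figure D2:**
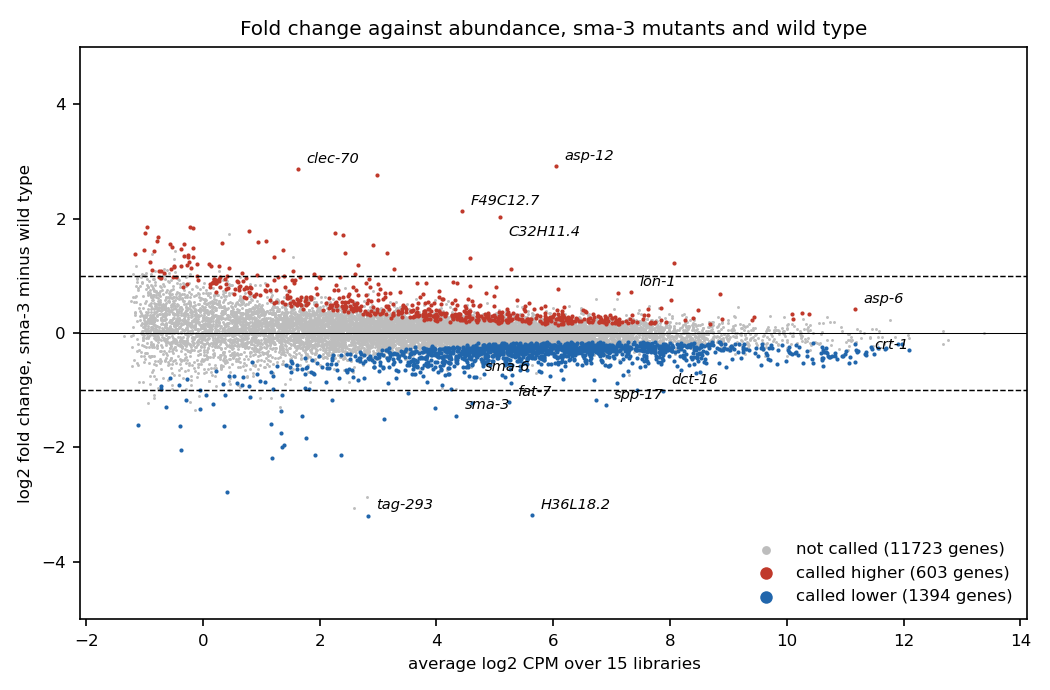
Log2 fold change of sma-3 mutants over the wild type (vertical axis) against the average log2 CPM over 15 libraries (horizontal axis) for each gene tested, with called genes in red (603 higher) and blue (1394 lower), dashed lines at 2-fold, and 1 gene beyond the vertical range not drawn. Most called genes lie between the dashed lines, and 36 lie below and 63 above.

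The largest rises included an aspartyl protease, a pair of C-type lectins and an enoyl-CoA hydratase. asp-12, which encodes an aspartyl protease (WBGene00017678, chromosome V, 8269210 to 8272056, plus strand), was at 12.29, 12.17, 10.6, 13.1 and 13.7 CPM in the wild type and 132, 67.8, 84.5, 77.8 and 106 CPM in the mutants (log2 fold change 2.92 ± 0.19, adjusted p = 2.3e-08). The lowest mutant library was several times the highest wild-type library. clec-70, of the C-type lectin family, went from at most 0.997 CPM to at least 4.34 CPM (log2 fold change 2.87 ± 0.22, adjusted p = 4.1e-07). C32H11.4, a CUB-like gene by the list used here, was at 16.9, 13.9, 7.32, 12.703 and 9.09 CPM against 54.2, 48.3, 45.6, 38.1 and 59.3 CPM (log2 fold change 2.03 ± 0.17, adjusted p = 1.4e-06). Among genes to which no role is given here, Y69H2.9 stood at 1.48 ± 0.272 and 10.1 ± 1.2 CPM (log2 fold change 2.76 ± 0.13, adjusted p = 6.5e-10). F49C12.7 was at 7.7, 8.01, 6.69, 8.34 and 8.21 CPM in the wild type and 32, 32.3, 40.4, 34.4 and 31.8 CPM in the mutants (log2 fold change 2.13 ± 0.10, adjusted p = 6.5e-10). The 12 largest rises were taken among called genes without overlap whose average log2 CPM was 1 or more. The other 7 were nas-27, an astacin metalloprotease (1.75), ugt-18, a glucuronosyltransferase (1.71), F47H4.2 (1.61), ech-9, an enoyl-CoA hydratase (1.54), C52A10.2, whose current symbol is cest-35.2 (1.41), the acyltransferase-family gene oac-34 (1.40) and clec-45 (1.33), with adjusted p between 4.7e-05 and 0.006. Most of these were scarce: apart from asp-12, C32H11.4 and F49C12.7, each had a wild-type mean of at most 3.96 CPM (C52A10.2).

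The largest falls included a noncoding RNA, a fatty acid desaturase and several genes given no role here. tag-293 (WBGene00015398, chromosome V, 7354435 to 7355564, minus strand) was at 14.8, 13.7, 18.3, 12.07 and 15.6 CPM in the wild type and 1.6, 2.57, 1.07, 1.91 and 1.14 CPM in the mutants (log2 fold change -3.19 ± 0.20, adjusted p = 1.7e-08). The groups were far apart, and wild type replicate 5 lay with its own group. H36L18.2, currently named lep-5, is a long noncoding RNA (WBGene00010424, chromosome X, 12652591 to 12653520, minus strand) known to limit the heterochronic protein LIN-28 and so to time the passage from juvenile to adult. It was at 52.5, 48.5, 65.8, 41.9 and 11.3 CPM in the wild type and 5.75, 4.21, 5.29, 4.97 and 3.98 CPM in the mutants (log2 fold change -3.18 ± 0.42, adjusted p = 0.0002). Replicate 5 of the wild type, at 11.3 CPM, lay much closer to the mutants than to its group, yet above all of them. fat-7, a desaturase that introduces the first double bond into stearic acid, fell from 71.3, 83, 59.2, 66.2 and 44.8 CPM to 34.8, 28, 19.7, 29.2 and 29.9 CPM (log2 fold change -1.20 ± 0.15, adjusted p = 0.00015). dct-16 was at 281, 289.8, 328, 295 and 206 CPM against 139.6, 168, 125.5, 146 and 117 CPM (log2 fold change -1.01 ± 0.13, adjusted p = 0.00014). spp-17, a saposin-like gene, was at 165 ± 29.2 against 69.2 ± 19.8 CPM (log2 fold change -1.26 ± 0.17, adjusted p = 0.00029). The remaining falls of the 12 largest were T28D6.3 (-2.13), F26G1.11 (-1.95), C44C1.6 (-1.75), sma-3 itself, the acyl-CoA dehydrogenase gene acdh-2 (-1.32), hmit-1.2, a proton-coupled myo-inositol transporter (-1.22), and Y41C4A.11 (-1.05). Among the genes named so far, sma-2, F26G1.11 and T28D6.3 overlap genes on the opposite strand, and F49C12.7 and acdh-2 overlap neighbours on their own strand, so their counts may hold reads of those genes; whether counting used strand was not given in the sources used here.

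Among abundant genes, whose average log2 CPM was 6 or more, the calls under 2-fold were 617 falls and 117 rises. The falls with the smallest p included genes of the intestinal lysosome-related granules. haf-4 and haf-9, half-molecule ABC transporters of those granules, were both lower: haf-4 was at 243, 252, 227, 244 and 201 CPM against 158, 173, 156.1, 151 and 144 CPM (log2 fold change -0.58 ± 0.07, adjusted p = 8e-05). haf-9 was at 287, 296, 283, 292 and 255 CPM in the wild type and 194, 202, 209.5, 207 and 203 CPM in the mutants (log2 fold change -0.48 ± 0.05, adjusted p = 5.5e-05). mrp-4, another ABC transporter, fell from 81.8 ± 10.9 to 52.3 ± 4 CPM (log2 fold change -0.65 ± 0.08, adjusted p = 0.00014). No library of one genotype reached the other in these 3 genes. dnpp-1, an aspartyl aminopeptidase, had wild-type values of 244, 236, 239, 246 and 234 CPM and mutant values of 172, 185, 175, 166 and 156.3 CPM (log2 fold change -0.49 ± 0.05, adjusted p = 4e-05). ftn-2, a ferritin heavy chain that stores iron, went from 296 ± 23.8 to 212 ± 5.96 CPM (log2 fold change -0.48 ± 0.06, adjusted p = 6.3e-05). dhs-3, a short-chain dehydrogenase of intestinal lipid droplets, fell by 0.48 on the log2 scale, with the libraries apart. ZK6.11 (irg-8) fell by 0.69, dct-18 by 0.52, K03H1.5 (dec-7) by 0.52, Y54F10AM.8 by 0.48 and ZK1307.1 by 0.49, all with adjusted p of at most 0.0002. Y94H6A.10 fell by 0.99, the largest of these 12.

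The abundant rises under 2-fold were led by lon-1 and by lysosomal proteases. cpr-4, a cathepsin B-like protease, was at 315, 275, 391, 394 and 384 CPM in the wild type and 612, 534, 597, 544 and 534 CPM in the mutants (log2 fold change 0.68 ± 0.11, adjusted p = 0.00079). asp-6, a cathepsin D-like protease, was at 2116, 1948, 1951, 2259 and 2268 CPM against 3102, 2684, 2852, 2759 and 2744 CPM (log2 fold change 0.42 ± 0.08, adjusted p = 0.0024). Both genes had every mutant library above every wild-type library. smp-2, a semaphorin, rose by only 0.28 yet its values separated, with 63.2, 65.1, 61.1, 66.6 and 62.9 CPM in the wild type and 77, 81.5, 76.6, 77.9 and 75.5 CPM in the mutants (SE 0.05, edgeR adjusted p = 0.0018). The peroxidasin gene pxn-1 (0.39 ± 0.08), M01A8.2, currently clip-1 (0.24 ± 0.04), the FERM-domain gene frm-3 (0.24 ± 0.05), ani-1, which encodes an anillin of the contractile ring (0.25 ± 0.06), F28C1.3 (0.28), F55D12.2 (0.41) and F57G12.1 (0.27) also rose without overlap, and the collagen gene col-77 (0.70 ± 0.15) rose with overlap. Beyond this set, Y39B6A.1, named after its values were seen because it was the most abundant of the called genes above 2-fold, was at 137, 123.4, 196, 140.4 and 202 CPM in the wild type and 467, 301, 357, 349.7 and 396 CPM in the mutants (log2 fold change 1.23 ± 0.15, adjusted p = 7.7e-05).

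Genes of protein synthesis fell together by small amounts. Of 78 cytosolic ribosomal protein genes tested, 47 were called lower and 0 higher, with a median log2 fold change of -0.30 over all 78, beside a median of 0.011 over all genes. Leaving out each library in turn gave 24 (without wild type replicate 3) to 54 (without sma-3 replicate 2) lower and medians between -0.34 and -0.24. Their called changes ran from -0.19 to -0.72. rpl-10, of the large subunit, was at 3194, 3118, 3299, 2961 and 2614 CPM in the wild type and 2633, 2574, 2310.1, 2157 and 2042 CPM in the mutants (log2 fold change -0.37 ± 0.08, adjusted p = 0.006). Wild type replicate 5 overlapped the mutants. rps-24, of the small subunit, was at 2347, 2264, 2489.8, 2220.1 and 2089 CPM against 1926, 1949, 1728, 1732 and 1512 CPM (log2 fold change -0.37 ± 0.07, adjusted p = 0.0035), without overlap. rps-16 (-0.41 ± 0.09) and rps-12 (-0.44 ± 0.09) fell with overlap. Averaged over the 78 genes, log2 CPM relative to the wild-type mean was 0.06, -0.02, 0.10, 0.02 and -0.16 in the wild-type libraries and -0.11, -0.15, -0.31, -0.37 and -0.58 in the mutants, so that replicate 9 of sma-3 was lowest and wild type replicate 5 lay within the mutant range.

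Mitochondrial ribosomal protein genes, which serve translation inside mitochondria, gave 49 of 70 lower and 0 higher, at a median of -0.29, and all 70 had negative fold changes. mrpl-12 was at 94.7, 90.8, 92.7, 93.7 and 83.4 CPM against 74.7, 73.3, 68.8, 58.8 and 54.1 CPM (log2 fold change -0.47 ± 0.09, adjusted p = 0.0025). mrps-28 (-0.50 ± 0.09), mrpl-32 (-0.35 ± 0.06) and mrpl-50 (-0.28 ± 0.05) fell too. Here the library means did not overlap: they were 0.03, 0.05, 0.06, 0.01 and -0.15 in the wild type and -0.22, -0.19, -0.25, -0.37 and -0.37 in the mutants. Translation factors had 19 of 41 lower and none higher (median -0.21). The cap-binding protein gene ife-1 went from 108 ± 10.7 to 80.2 ± 4.01 CPM (log2 fold change -0.44 ± 0.07, adjusted p = 0.00067), and the initiation factor subunits eif-3.H (-0.31), eif-3.K (-0.28) and iftb-1 (-0.28) fell. Of the aminoacyl-tRNA synthetase genes, which charge tRNAs, 17 of 33 were lower and 0 higher (median -0.18). The aspartyl enzyme gene dars-1 went from 346 ± 9.13 to 298 ± 8.94 CPM (log2 fold change -0.22 ± 0.05, adjusted p = 0.0063), with sars-1 (-0.23), nars-1 (-0.30) and vars-2 (-0.24). Ribosome biogenesis genes gave 7 of 21 lower and none higher, among them the rRNA methyltransferase gene fib-1 (906 ± 106 to 665 ± 61.5 CPM). Splicing genes gave 22 of 61 lower and none higher, with snr-1, snr-2, snr-3 and snr-5, which encode Sm core proteins, at -0.33, -0.35, -0.30 and -0.45. RNA polymerase, Mediator and general factor genes had 12 of 74 lower, with rpac-40 at -0.33 and rpoa-12 at -0.51. Nuclear transport genes gave 5 of 39, a share near that of all genes, with imb-2 at -0.27 and ran-1 at -0.25. No member of either list was called higher. With library totals the lower calls were 38 for cytosolic and 33 for mitochondrial ribosomal proteins, 12 for translation factors, 5 for synthetases, 3 for ribosome biogenesis and 10 for splicing, with no higher call in these 6 lists. Over the single libraries left out, the lower calls were 31 (without wild type replicate 2) to 57 (without wild type replicate 5) for mitochondrial ribosomal proteins, 11 (without wild type replicate 2) to 29 (without wild type replicate 5) for translation factors. They were 7 (without wild type replicate 2) to 18 (without wild type replicate 5) for synthetases, 10 (without wild type replicate 2) to 26 (without wild type replicate 5) for splicing, 3 (without wild type replicate 2) to 12 (without wild type replicate 5) for ribosome biogenesis and 6 (without wild type replicate 2) to 15 (without wild type replicate 5) for RNA polymerases.

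Transcript length moved with these results. Among genes tested, the shortest 20% by exon length (up to 834 bases) had 18.6% called lower and 1.47% higher, and the longest 20% (from 2352 bases) had 4.35% lower and 8.29% higher. When a trend of each library on exon length was removed, the lower calls among the shortest 20% went from 505 to 213. Over all genes the lower calls went from 1394 to 1125 and the higher calls from 603 to 521, with 13575 genes tested in place of 13720. Cytosolic ribosomal protein genes (median exon length 532 bases) went from 47 to 29 lower with a median of -0.18, and mitochondrial ribosomal protein genes from 49 to 30 lower (-0.22). Respiratory chain genes went from 39 to 14. Among the longest 20% the higher calls went from 225 to 96 and the lower calls from 118 to 195. Splicing genes went from 22 to 14 lower, the vacuolar ATPase from 13 to 8 and RNA polymerase genes from 12 to 5, whereas synthetase genes (median 2073 bases) went from 17 to 21 and translation factors from 19 to 20. The part of transcript length in the ribosomal and respiratory results was not otherwise tested.

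Energy metabolism showed the same direction. Nuclear-encoded genes of the respiratory chain and ATP synthase gave 39 of 71 lower and 0 higher, at a median of -0.22 and with called changes from -0.17 to -0.46. Y94H6A.8, currently ndua-12, a subunit of complex I, was at 125.01, 124, 138, 122.6 and 111 CPM in the wild type and 106, 110.5, 97.5, 99.3 and 87.5 CPM in the mutants (log2 fold change -0.31 ± 0.06, adjusted p = 0.0055), without overlap. The lower calls numbered 12 (without wild type replicate 2) to 46 (without wild type replicate 5) over the single libraries left out and 19 with library totals. C34B2.8 (ndua-13) and Y71H2AM.4 (nduc-2), of the same complex, fell by 0.33 and 0.36, and T20G5.14 (cox-14) by 0.34. In the tricarboxylic acid and glyoxylate cycles 6 of 21 genes were lower and 0 higher, with 3 (without wild type replicate 1) to 9 (without wild type replicate 5) lower over the single libraries left out. The malate dehydrogenase gene mdh-1 went from 519.7, 501, 538, 521 and 476 CPM to 441, 439, 407, 407 and 401 CPM (log2 fold change -0.29 ± 0.05, adjusted p = 0.002), and sucg-1 (-0.40), idh-1 (-0.37) and aco-1 (-0.29) fell. idh-1 was at 1227, 1216, 1233, 1294 and 871 CPM in the wild type and 955, 933, 923, 794 and 903 CPM in the mutants, with wild type replicate 5 among the mutants. Glycolysis and gluconeogenesis gave 3 of 21 lower, fbp-1 (-0.29 ± 0.05), enol-1 (-0.21 ± 0.05) and tpi-1 (-0.23 ± 0.07), and the share, near that of all genes, is no result about the list.

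Genes of the vacuolar ATPase, the proteasome, chaperones and the secretory pathway had more falls than rises, and autophagy genes had 0 falls and 1 rise among 28. The vacuolar ATPase, which acidifies lysosomes, had 13 of 20 genes lower and 0 higher (median -0.21), or 6 lower with library totals. vha-8 was at 792, 800.0, 847, 796 and 759 CPM in the wild type and 669, 651, 678, 646 and 691 CPM in the mutants (log2 fold change -0.26 ± 0.05, adjusted p = 0.0028). vha-6, the intestinal a subunit, was at 619, 615, 567, 605 and 539.9 CPM against 489, 497, 488, 506 and 462 CPM (log2 fold change -0.27 ± 0.05, adjusted p = 0.0029). Neither gene's libraries overlapped, and vha-11 (-0.26) and vha-4 (-0.28) fell as well. Proteasome genes gave 14 of 33 lower and none higher (median -0.18), with pbs-7 at -0.29, pas-1 at -0.30, pas-4 at -0.32 and pbs-3 at -0.29. For these the wild-type libraries were uneven, since the list mean of wild type replicate 5 was 0.12, above its group, and leaving out single libraries gave 8 (without wild type replicate 3) to 20 (without sma-3 replicate 2) lower. Heat shock proteins and chaperones gave 16 of 55 lower and 0 higher with TMM scaling and 8 lower and 2 higher with library totals, and leaving out single libraries gave 11 (without wild type replicate 3) to 24 (without wild type replicate 5) lower. hsp-4, the endoplasmic reticulum chaperone BiP, was at 275, 253, 270.5, 264 and 324 CPM against 189.4, 191, 160.1, 213 and 195 CPM (log2 fold change -0.55 ± 0.10, adjusted p = 0.0018), hsp-17 fell by 0.54, and the chaperonin subunits cct-5 and cct-4 fell by 0.26 and 0.26. In the secretory pathway 14 of 61 genes were lower and 1 higher. crt-1, calreticulin, was at 3077, 2839, 2930.3, 3045 and 2854 CPM in the wild type and 2592, 2233, 2094, 2159 and 2176 CPM in the mutants (log2 fold change -0.39 ± 0.06, adjusted p = 0.0011), without overlap. The signal peptidase genes Y54E10BR.5 (sec-11), hpo-21 (spcs-2) and C34B2.10 (spcs-1) were lower by 0.31, 0.38 and 0.35.

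**Figure D3:**
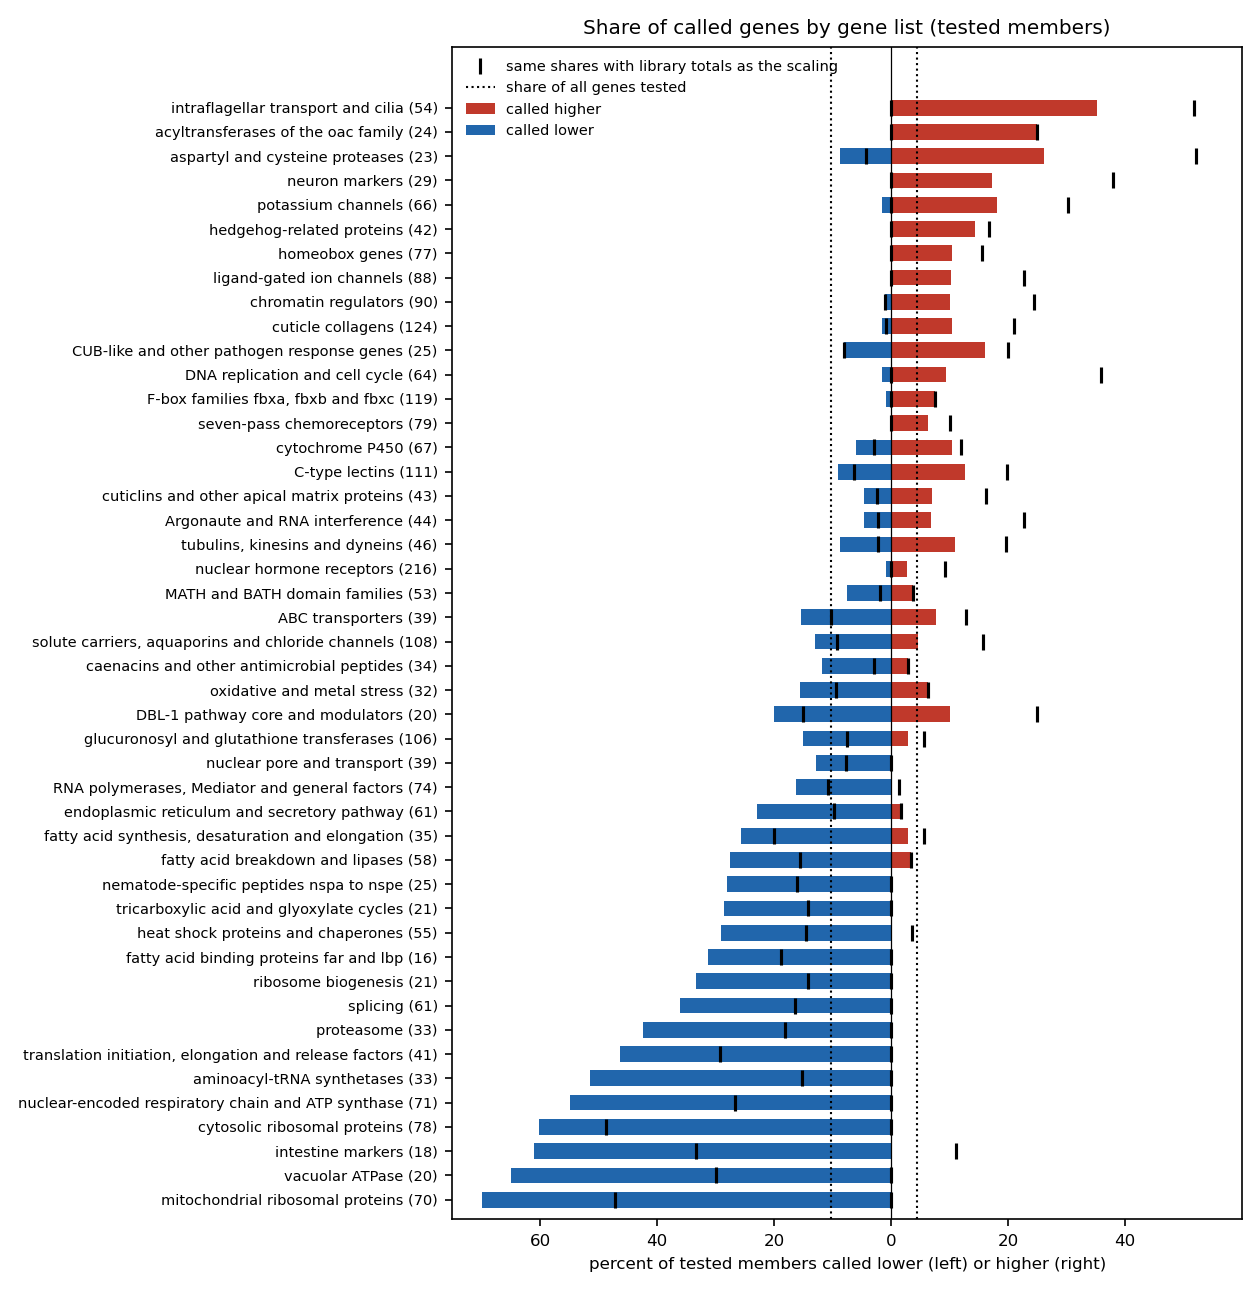
Percent of tested members called higher (red, right) and lower (blue, left) for the 46 gene lists with at least 10 tested members and 5 called, with the number tested in brackets; dotted lines mark 4.4% and 10.2%, the shares over all genes, and black ticks give the shares with library totals as the scaling. Mitochondrial ribosomal proteins, the vacuolar ATPase and intestine markers have the largest shares lower and cilia the largest share higher with TMM scaling; with library totals the balance of calls turns to higher for solute carriers, ABC transporters, the MATH and BATH families and the DBL-1 pathway list, and to even or near even for small counts such as caenacins.

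Intestinal genes were lower by number, while their summed levels overlapped between the genotypes. Of 18 intestine markers, 11 were called lower and 0 higher with TMM scaling (median -0.25), and 6 lower and 2 higher with library totals. The number lower was 6 without wild type replicate 1. Over library totals, their summed level was 8753 to 9604 CPM in the wild type and 8648 to 9609 CPM in the mutants. With TMM scaling, which gave the 11 calls, it was 8716 to 9996 CPM and 8077 to 9713 CPM, overlapping but reaching lower in the mutants. elt-2, the GATA factor that defines the intestine, was at 45.2, 44.8, 45.2, 44.4 and 37.9 CPM in the wild type and 35.2, 38.9, 39.6, 35 and 33.3 CPM in the mutants (log2 fold change -0.26 ± 0.08, adjusted p = 0.044), with sma-3 replicates 3 and 4 above wild type replicate 5. act-5, the actin of the brush border, was at 1561, 1382, 1509, 1488 and 1101 CPM against 1168, 1037, 940.2, 945 and 798 CPM (log2 fold change -0.53 ± 0.10, adjusted p = 0.0033), again overlapping at wild type replicate 5. spl-1 (-0.32 ± 0.05) and the fatty acid binding protein gene lbp-6 (-0.43 ± 0.08) fell without overlap. The list means were 0.02, 0.01, 0.02, 0.04 and -0.09 in the wild type and -0.20, -0.14, -0.22, -0.21 and -0.36 in the mutants, all mutant libraries lying below all wild-type libraries.

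In fat metabolism the falls covered desaturation, elongation and peroxisomal breakdown. Fatty acid synthesis genes gave 9 of 35 lower and 1 higher, with 5 (without wild type replicate 2) to 16 (without wild type replicate 5) lower over the single libraries left out. Beside fat-7, the other stearoyl-CoA desaturase gene fat-6 was at 413, 424, 409, 429 and 369.9 CPM in the wild type and 282, 321, 295, 318 and 298 CPM in the mutants (log2 fold change -0.43 ± 0.07, adjusted p = 0.0011), without overlap. let-767 (-0.37 ± 0.07) and elo-9 (-0.33 ± 0.07) fell. Fatty acid breakdown genes gave 16 of 58 lower and 2 higher, with 10 (without wild type replicate 2) to 19 (without wild type replicate 5) lower over those libraries. The acyl-CoA oxidase genes F08A8.2 (acox-1.2) and F08A8.4 (acox-1.4), of peroxisomal beta-oxidation, were lower. F08A8.2 was at 204, 193, 215, 175 and 204 CPM against 136, 122.04, 91.5, 78.2 and 111 CPM (log2 fold change -0.88 ± 0.15, adjusted p = 0.0015). F08A8.4 went from 54.1 ± 4.21 to 37.6 ± 4.09 CPM (log2 fold change -0.52 ± 0.08, adjusted p = 0.00089). Further enzymes that shorten the side chains of ascarosides, the pheromones of this worm, were looked up after these values were seen. Of these, maoc-1 (-0.24, adjusted p = 0.048), dhs-28 (-0.19, adjusted p = 0.023) and daf-22 (-0.32, adjusted p = 0.0047) passed. Values of other acyl-CoA oxidase genes are not given here, and 40 of the 58 breakdown genes were not called. Of far and lbp genes, which bind fatty acids, 5 of 16 were lower and 0 higher, with lbp-4 at -0.52, lbp-9 at -0.28 and far-2 at -0.54, and 2 were lower once the length trend was removed or without wild type replicate 2. For far-2 the value in wild type replicate 5 was 205 CPM, inside the mutant range of 201 to 283 CPM. pcyt-1, of phosphatidylcholine synthesis, fell from 111 ± 10.9 to 76 ± 7.94 CPM (log2 fold change -0.55 ± 0.13, adjusted p = 0.01).

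Called detoxification and defence genes went both ways. Glucuronosyl and glutathione transferase genes gave 16 of 106 lower and 3 higher with TMM scaling and 8 and 6 with library totals. Leaving out single libraries gave 8 (without wild type replicate 2) to 22 (without wild type replicate 5) of them lower. gst-1 was at 141, 140.5, 166, 157.1 and 156.4 CPM in the wild type and 99.4, 106, 86.9, 114 and 101 CPM in the mutants (log2 fold change -0.58 ± 0.08, adjusted p = 0.00035). gst-6 (-0.58) and gst-26 (-0.50) fell, while ugt-18 rose as given above. Cytochrome P450 genes gave 7 higher and 4 lower of 67, from cyp-34A6 (1.14) and cyp-34A8 (0.50) to cyp-13A2. The last was at 86.1, 91.7, 75.9, 103.01 and 54.8 CPM against 39.3, 53.5, 53.6, 48.6 and 39.9 CPM (log2 fold change -0.81 ± 0.13, adjusted p = 0.0009). C-type lectin genes, several of which respond to bacteria, gave 14 higher and 10 lower of 111, with 9 (without wild type replicate 2) to 17 (without wild type replicate 5) higher and 6 (without wild type replicate 2) to 17 (without wild type replicate 5) lower over the single libraries left out. clec-17 was at 22.3, 20.5, 28.2, 19.3 and 18.18 CPM against 43.6, 49.5, 41.3, 51.6 and 48.9 CPM (log2 fold change 1.11 ± 0.13, adjusted p = 7.5e-05). clec-57 was at 29.1, 26.9, 29.4, 33 and 38 CPM against 20.1, 18.24, 19.4, 18.8 and 16.4 CPM (log2 fold change -0.75 ± 0.10, adjusted p = 0.00022). The 2 members thus separated fully in opposite directions. CUB-like genes gave 4 higher and 2 lower of 25, with F49F1.5 at 0.89 and T24B8.5 (sysm-1) at 0.66 beside C32H11.4, and ZK6.11 lower. Lysozyme, saposin and thaumatin genes gave 1 higher, lys-6 (0.92), and 2 lower, spp-17 and ilys-5 (-0.30), of 35, below the shares of all genes. Caenacin and related peptide genes gave 1 higher and 4 lower of 34, the latter including nlp-31 (-0.41), fip-2 (-0.45) and fip-5 (-0.53). These shares were near those of all genes, and 0 were lower with the length trend removed or without wild type replicate 3. Solute carriers, aquaporins and chloride channels gave 14 lower and 5 higher of 108 with TMM scaling, shares near those of all genes, and 1 higher without wild type replicate 3. With library totals they gave 10 lower and 17 higher. ABC transporters gave 6 lower and 3 higher of 39 with TMM scaling against 4 and 5 with library totals.

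With TMM scaling, the share of members called higher was larger for cilia than for any other list with at least 10 tested members. Of 54 genes of intraflagellar transport and ciliary structure, 19 were called higher and 0 lower, at a median of 0.33, and 16 were higher with the length trend removed. In C. elegans these genes act in ciliated sensory neurons. bbs-2, a subunit of the BBSome that carries membrane proteins in cilia, was at 2.33, 2.23, 2.04, 1.83 and 2.35 CPM in the wild type and 3.44, 3.8, 4.89, 3.86 and 3.77 CPM in the mutants (log2 fold change 0.87 ± 0.14, adjusted p = 0.00086). che-3, the heavy chain of the dynein that returns cargo from the tip, was at 11, 10.9, 13.5, 13.1 and 15.2 CPM against 16.9, 14.7, 18.1, 19.3 and 22.5 CPM (log2 fold change 0.53 ± 0.11, adjusted p = 0.0066), with replicate 3 of the mutant below wild type replicate 5. che-11, of intraflagellar transport, went from 7.22 ± 1.3 to 11.2 ± 1.61 CPM (log2 fold change 0.63 ± 0.12, adjusted p = 0.0041). xbx-9 went from 12.21 ± 2 to 17.6 ± 1.92 CPM (log2 fold change 0.53 ± 0.11, adjusted p = 0.0063). Averaged over the list, the libraries stood at 0.00, -0.05, 0.01, -0.10 and 0.14 in the wild type and 0.29, 0.22, 0.27, 0.24 and 0.42 in the mutants, without overlap. With library totals 28 were higher, and leaving out single libraries gave 12 (without wild type replicate 3) to 26 (without wild type replicate 5). The called rises ran from 0.32 to 0.91, all under 2-fold. Separately, tba-5, a tubulin of cilia, rose from 6.21 ± 0.303 to 9.14 ± 1.66 CPM (log2 fold change 0.56 ± 0.12, adjusted p = 0.0055).

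Other neuronal lists had smaller shares higher. Of neuron markers 5 of 29 were higher and 0 lower (median 0.14), or 3 (without wild type replicate 1) to 7 (without wild type replicate 5) higher over the single libraries left out, and their summed level was 2282 to 2484 CPM in the wild type and 2555 to 3001 CPM in the mutants, over library totals, without overlap. egl-21, a carboxypeptidase that processes neuropeptides, was at 301, 289, 318, 321 and 335 CPM in the wild type and 368, 363, 373, 394 and 375 CPM in the mutants (log2 fold change 0.26 ± 0.07, adjusted p = 0.015). unc-104, a kinesin of synaptic vesicle precursors (0.26), unc-10, a synaptic scaffold (0.24), and cat-1, the vesicular monoamine transporter (0.31), rose. Potassium channel genes gave 12 higher and 1 lower of 66, with twk-34 at 0.32, twk-43 at 0.35, twk-12 at 0.36 and twk-17 at 0.24. Ligand-gated ion channel genes gave 9 higher and 0 lower of 88, among them acr-23 (0.52), avr-14 (0.30), lgc-38 (0.34) and glr-5 (0.24). Removing the length trend left 7 and 5 of these higher, and over the single libraries left out the numbers were 4 (without wild type replicate 4) to 15 (without wild type replicate 5) and 1 (without wild type replicate 3) to 15 (without wild type replicate 5). Chemoreceptor genes gave 5 of 79 higher, a share not far from that of all genes. srw-85 was at 34.9, 36.2, 35.1, 41.6 and 35.5 CPM against 52.1, 52.2, 61.5, 60.3 and 61 CPM (log2 fold change 0.65 ± 0.08, adjusted p = 0.00018). Neuropeptide genes gave 3 higher (flp-4, pdf-1 and nlp-11, at 0.38, 0.32 and 0.25) and 1 lower (nlp-36, -0.48) of 97, below the shares of all genes. With the length trend removed 14 were higher and 1 lower, and the share higher exceeded that of all genes (521 of 13575). Insulin-like peptide genes gave 3 lower and 1 higher of 22 with TMM scaling, shares not far from those of all genes. They gave 3 and 4 both with library totals and with the length trend removed. ins-4, an insulin-like peptide, was at 5.92, 4.24, 4.86, 4.61 and 1.35 CPM in the wild type and 1.23, 2.05, 0.597, 1.33 and 0.847 CPM in the mutants (log2 fold change -1.84 ± 0.33, adjusted p = 0.0024), with wild type replicate 5 at the mutant level.

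**Figure D4:**
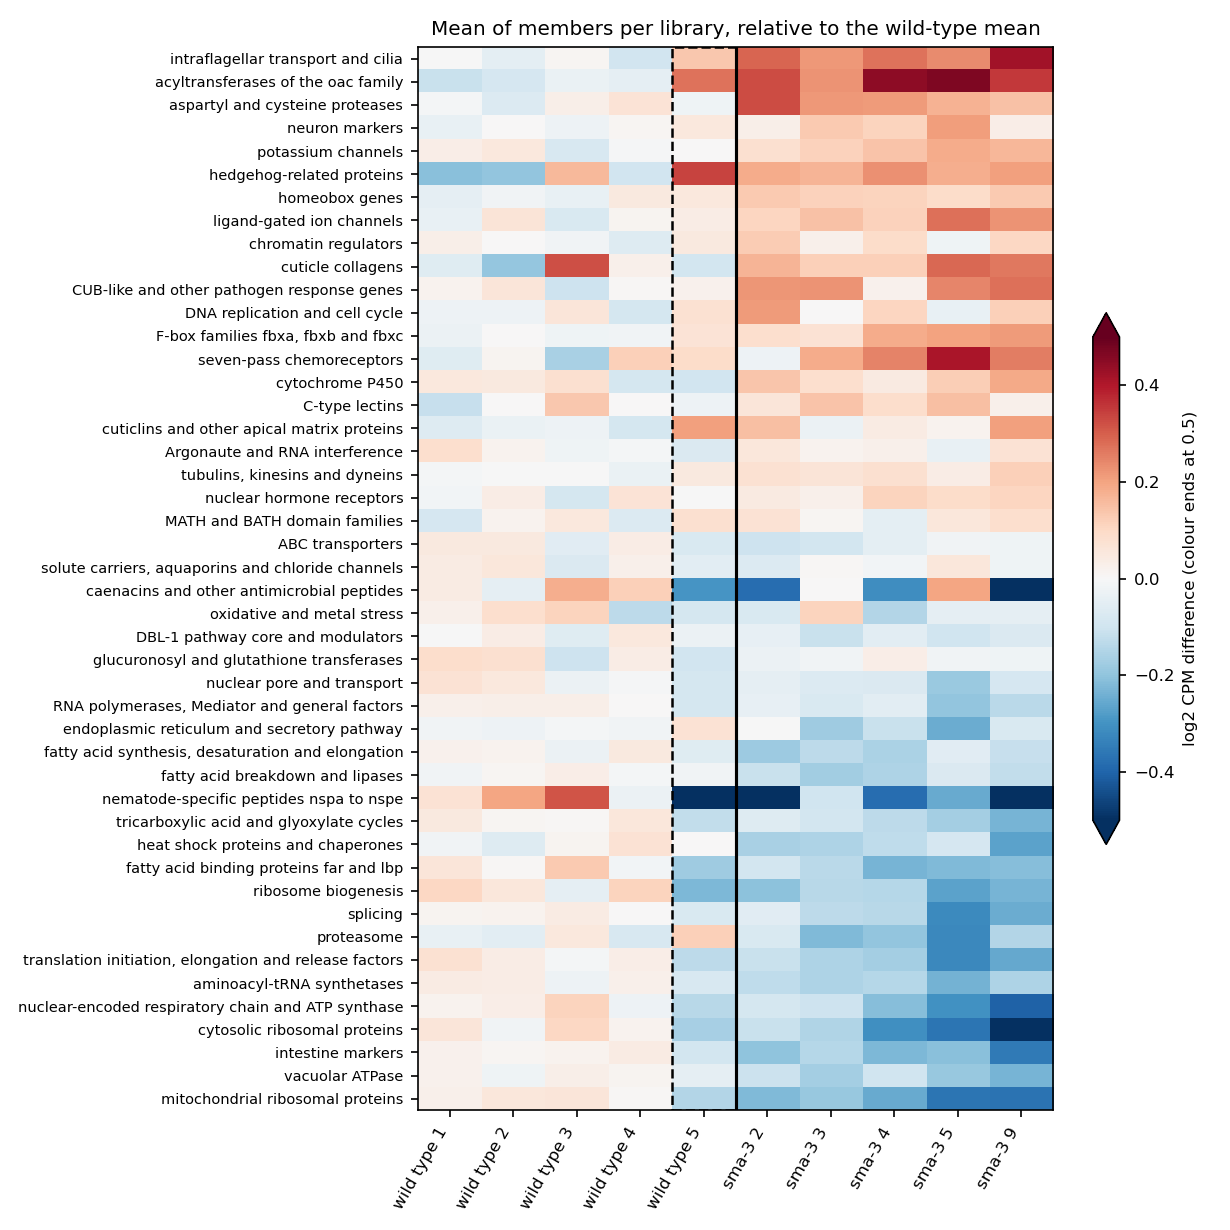
Mean log2 CPM of the tested members of each list in each of the 10 libraries, as a difference from the mean of the 5 wild-type libraries (red above, blue below, colours ending at 0.5), with the lists in the order of their calls and wild type replicate 5 in the dashed frame. Mitochondrial ribosomal proteins range from -0.37 to -0.19 in the mutants and cilia from 0.22 to 0.42, and wild type replicate 5 is displaced towards the mutants in many lists but not in the proteasome (0.12).

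Called genes of the cuticle and extracellular matrix went both ways, and no epidermis marker was called. Of 124 cuticle collagen genes 13 were called higher and 2 lower (median 0.15), and the library means ran from -0.19 in wild type replicate 2 to 0.32 in wild type replicate 3, the library with high yolk transcripts, against 0.12 to 0.29 in the mutants. Leaving out single libraries gave 5 (without wild type replicate 4) to 23 (without wild type replicate 5) collagens higher. The lower calls ran from 0 (without wild type replicate 3) to 7 (without wild type replicate 5). col-77 was at 102, 101, 149, 80.6 and 76.2 CPM in the wild type and 161, 182, 124.6, 199 and 158 CPM in the mutants (log2 fold change 0.70 ± 0.15, adjusted p = 0.0072), where wild type replicate 3 exceeded sma-3 replicate 4. col-156 (0.53 ± 0.11), col-157 (0.47 ± 0.12) and col-162 (0.53 ± 0.12) rose without overlap. lon-3, a collagen gene known to affect body length and named here after its value was seen, rose from 211 ± 63.5 to 314 ± 49.5 CPM (log2 fold change 0.57 ± 0.17, adjusted p = 0.031). None of the 6 furrow collagen genes, which shape the annular grooves, passed: dpy-10 was at 377, 363, 399, 406 and 462 CPM against 512, 312, 413, 307 and 437 CPM (log2 fold change -0.02 ± 0.13, adjusted p = 0.95), with broad overlap. Cuticlin and apical matrix genes gave 3 higher, lpr-2 (0.48), cut-4 (0.62) and cutl-11 (0.45), and 2 lower of 43, one of them fbn-1. It was at 483, 456, 350.0, 482 and 220.3 CPM against 287, 253, 265, 168 and 273 CPM (log2 fold change -0.68 ± 0.19, adjusted p = 0.022), where wild type replicate 5 lay inside the mutant range. Hedgehog-related genes gave 6 higher and 0 lower of 42, or 3 (without wild type replicate 4) to 18 (without wild type replicate 5) higher over the single libraries left out. grd-2, of the groundhog-like group, was at 6.98, 6.68, 11, 7.96 and 16.7 CPM in the wild type and 17.1, 14.9, 20.8, 19.2 and 17.3 CPM in the mutants (log2 fold change 0.88 ± 0.20, adjusted p = 0.0097). Others that rose were grd-11 (0.88), grd-6 (0.41) and grd-14 (0.26). In the aspartyl and cysteine protease list 6 were higher and 2 lower of 23, the former led by asp-12, cpr-4 and asp-6. Astacin genes gave 3 of 29 higher, nas-27, nas-7 (0.38) and nas-8 (0.32). lam-3, the laminin alpha chain of basement membranes, fell from 31.5, 32.6, 27.9, 35.3 and 15.9 CPM to 13.8, 19.9, 16.9, 17.8 and 19.4 CPM (log2 fold change -0.71 ± 0.15, adjusted p = 0.0069), and there too wild type replicate 5 lay with the mutants. Of 15 epidermis and seam markers none passed, and of 31 body-wall muscle markers 1 did, the myosin heavy chain gene myo-3, which rose from 995 ± 58.3 to 1247 ± 43.2 CPM (log2 fold change 0.33 ± 0.08, adjusted p = 0.0094). Summed levels overlapped for the epidermis (1928 to 2472 CPM against 1721 to 2512 CPM) and for muscle (26763 to 30825 CPM against 30528 to 33301 CPM).

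Homeobox and chromatin genes had small rises, unlike the splicing and RNA polymerase lists above. Homeobox genes gave 8 of 77 higher and 0 lower. ceh-48 was at 13.8, 12.33, 13.1, 12.9 and 13.6 CPM in the wild type and 16.6, 16.4, 17.6, 16.9 and 20.00 CPM in the mutants (log2 fold change 0.42 ± 0.08, adjusted p = 0.0024), and lim-8, unc-42 and ceh-32 rose by 0.29, 0.46 and 0.23. Chromatin regulators gave 9 higher and 1 lower of 90, among them the histone demethylase gene jmjd-3.1 (0.25), the histone deacetylase gene hda-4 (0.22) and spr-3 (0.38), with jmjd-5 lower (-0.34). Without the length trend 4 homeobox and 5 chromatin genes were higher, shares not far from that of all genes (521 of 13575). Over the single libraries left out the numbers were 3 (without wild type replicate 1) to 8 (without wild type replicate 5) and 4 (without wild type replicate 4) to 12 (without wild type replicate 5). Nuclear hormone receptor genes, at 6 higher and 2 lower of 216, were below the shares of all genes. In the heterochronic list 2 of 15 genes rose. lin-28, an RNA-binding protein of larval timing, was at 31, 29.8, 36.9, 30.02 and 42.6 CPM in the wild type and 55.7, 40.5, 46.1, 40.5 and 44 CPM in the mutants (log2 fold change 0.42 ± 0.11, adjusted p = 0.021). lin-14, a transcription factor of early larval fates, was at 140.5, 134, 116, 131 and 131 CPM against 143, 149.7, 150.4, 151 and 145 CPM (log2 fold change 0.18 ± 0.06, adjusted p = 0.037). For lin-28 wild type replicate 5 lay within the mutant range and for lin-14 it did not. Of the small families, oac acyltransferase genes gave 6 of 24 higher and 0 lower. oac-30 was at 6.09, 7.05, 8.84, 4.99 and 8.39 CPM against 13.8, 14.6, 15, 15 and 18.3 CPM (log2 fold change 1.11 ± 0.15, adjusted p = 0.00023), with oac-51 and oac-58 higher by 0.88 and 0.98. F-box genes of the fbxa, fbxb and fbxc families gave 9 higher and 1 lower calls, led by fbxa-189 (1.79). These were 7.56% and 0.84% of the members tested, against 4.4% higher and 10.2% lower over all genes. How the authors' counting treated reads shared by near-identical members of such families was not given in the sources used here. In the RNA interference list eri-7 rose from 10.4 ± 1.61 to 16.8 ± 0.901 CPM (log2 fold change 0.69 ± 0.09, adjusted p = 0.00024) and its trans-splicing partner eri-6 by 0.33, while sid-2 fell by 0.50.

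The comparison was then repeated without wild type replicate 5, the wild-type library farthest on average from its own group. With the 4 remaining wild-type libraries 13805 genes were tested and 3069 (22.2%) were called, 1237 higher (8.96%) and 1832 lower (13.3%). Of the 1997 genes called with all 10 libraries, 1930 were called again and 67 were not. Among genes tested both ways 1132 were newly called, 660 higher and 472 lower. Wild type replicate 5 lay inside the range of the mutant libraries in 63.1% of these, and in 55.6% of all genes tested, where each of the other wild-type libraries did so in 50.6% to 54.5%. Leaving it out thus added calls mostly under 2-fold: calls under 1.25-fold rose from 911 to 1249, those of 1.25 to 1.5-fold from 762 to 1278, those of 1.5 to 2-fold from 225 to 380 and those of at least 2-fold from 99 to 162.

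**Figure D5:**
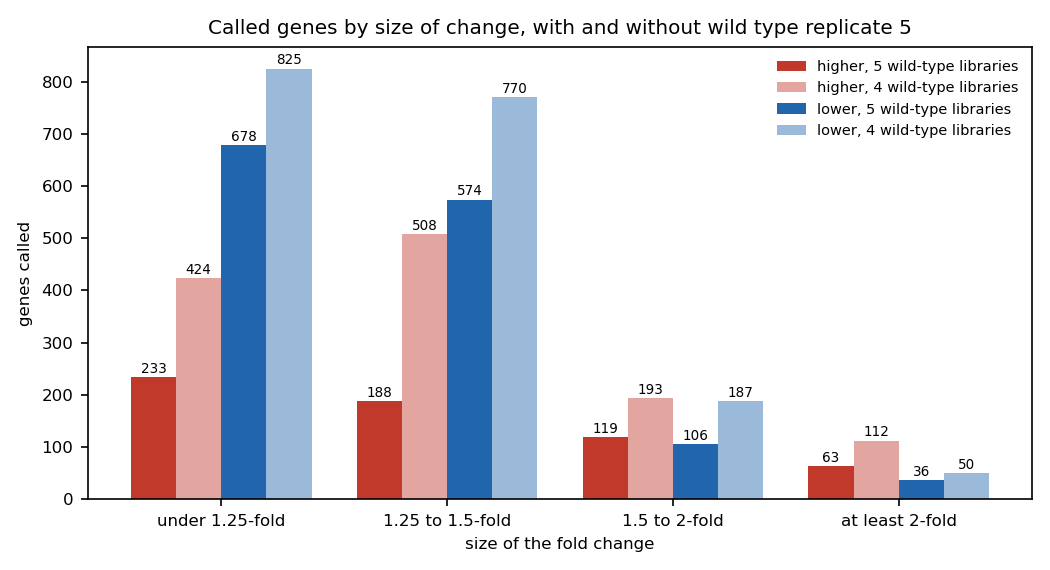
Number of genes called (vertical axis) by size of fold change (horizontal axis), higher in red and lower in blue, with all 5 wild-type libraries (dark) and without wild type replicate 5 (light). Without that library the number rises in every class, from 188 to 508 for genes higher by 1.25 to 1.5-fold.

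By function, rising and falling lists both gained calls without wild type replicate 5, as did all genes tested. Over all genes the higher calls went from 603 (4.4%) to 1237 (8.96%) and the lower calls from 1394 (10.2%) to 1832 (13.3%). The higher calls of cilia and collagens, and the lower calls of ribosomal proteins and the respiratory chain, grew by a smaller factor than that. Hedgehog-related genes went from 6 to 18 higher of 42, DNA replication and cell cycle genes from 6 to 17 of 64 with 1 lower in each case, and cuticlin and apical matrix genes from 3 to 10 of 43. Patched-related genes went from 1 to 9 of 29, cuticle collagens from 13 to 23 of 124 with lower calls from 2 to 7, and astacins from 3 to 8 of 29. Cilia went from 19 to 26. Some of these counts fell when another library was left out: to 1 without wild type replicate 4 for cell cycle genes, which gave 2 with the length trend removed, and to 1 without wild type replicate 1 for astacins. The higher calls over all genes fell too, from 603 to 345 without wild type replicate 4 and to 354 without wild type replicate 1. Among falling lists, cytosolic ribosomal proteins went from 47 to 53 lower, mitochondrial ribosomal proteins from 49 to 57, and respiratory chain genes from 39 to 46. Translation factors went from 19 to 29, fatty acid synthesis genes from 9 to 16 and chaperones from 16 to 24, while the vacuolar ATPase stayed at 13 and intestine markers at 11. The proteasome went from 14 to 13.

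Genes that pass only without wild type replicate 5 are chosen by that library's place, so their values are a description and no support for a likeness to the mutants. Among those whose average log2 CPM was 4 or more, C18E9.7 had the smallest p: it was at 50.2, 52.8, 53.4, 48.2 and 75.3 CPM in the wild type and 70.7, 64.1, 64.7, 66.4 and 67.1 CPM in the mutants. Its log2 fold change was 0.25 with an edgeR adjusted p of 0.082 when wild type replicate 5 was kept, and 0.38 with 0.00045 when that library was left out. The ligand-gated channel gene lgc-27 was at 118.6, 131, 152, 125.3 and 207 CPM against 197, 172, 181, 168 and 197 CPM, and nas-14, an astacin, at 37.4, 36.9, 50.05, 42.5 and 71.3 CPM against 59.9, 55.6, 61.1, 55.7 and 65.3 CPM. bed-3, a zinc finger factor, was at 72.4, 76.9, 94.8, 82.3 and 143 CPM against 113, 108, 125.8, 107 and 137 CPM. In each, replicate 5 was the highest of the wild-type libraries and stood above or within the mutants, as it did in the cadherin gene cdh-8 (54.1 CPM against at most 36.8 CPM in the other wild-type libraries) and in C27A2.12 (24.2 against at most 16 CPM). Without it the log2 fold changes of these 6 genes lay between 0.38 and 0.57. Many cuticle, astacin and hedgehog-related genes are known to cycle with the larval molts, and whether the libraries differ in their place in that cycle was not tested.

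Of the 67 genes that passed only with wild type replicate 5, the leading members by p, among genes whose average log2 CPM was 4 or more, were F41C3.4, ZK899.2, the glutamate receptor gene glr-6, K02B2.1, C33A12.3 and col-125. Their edgeR adjusted p was 0.031 to 0.037 with wild type replicate 5 and 0.051 to 0.057 without it. In ZK899.2 that library was at 47.1 CPM, farther from the mutants (37.6, 35.3, 36.3, 34.4 and 35.8 CPM) than the other wild-type libraries (39, 40.8, 40.4 and 39.9 CPM). The log2 fold changes of the 6 genes with wild type replicate 5 were -0.26, -0.21, 0.20, -0.23, -0.18 and 0.34.

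In some of the called genes wild type replicate 5 also carried most of the wild-type spread. The nspc genes, small nematode-specific peptides, were all of the called members except nspd-7 (named after its value was seen) in their group of nspa to nspe genes, of which 7 of 25 were lower and 0 higher. nspc-10 was at 2.6, 3.48, 2.82, 2.78 and 0.586 CPM in the wild type and 0.236, 0.76, 0.637, 0.621 and 0.508 CPM in the mutants (log2 fold change -2.19 ± 0.42, adjusted p = 0.0034). nspc-9 (-1.18), nspc-4 (-1.45) and nspc-14 (-0.98) fell too. cysl-2, a cysteine synthase family gene of the hydrogen sulfide and hypoxia response, named after its values were seen, was at 146, 146, 143, 164 and 39.9 CPM against 56.6, 78.9, 57.1, 49.2 and 43.5 CPM (log2 fold change -1.17 ± 0.26, adjusted p = 0.008). In nspc-10 and cysl-2 the other 4 wild-type libraries lay above the highest mutant library, and replicate 5 lay among or below the mutants. By contrast, tag-293, asp-12, F49C12.7, C32H11.4, sma-6 and lon-1 had wild type replicate 5 on the wild-type side, and their log2 fold changes without it were -3.18, 2.96, 2.15, 1.94, -0.82 and 0.77.

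Germline and adult transcripts were checked because of wild type replicate 3. Of 44 germline markers 1 was higher, mes-3 (0.24), and 1 lower, csr-1 (-0.24), and their summed level was 1059 to 1310 CPM in the wild type and 1160 to 1263 CPM in the mutants. The yolk gene vit-6 was at 1.16, 0.459, 80.2, 1.83 and 0.88 CPM in the wild type and 2.07, 0.702, 2.86, 1.55 and 3.94 CPM in the mutants, so that its log2 fold change of -2.87 (edgeR adjusted p = 0.1) rested on wild type replicate 3. Oocyte and eggshell markers had no called member of 16, and summed to 43.5 to 131 CPM in the wild type and 50.5 to 66.5 CPM in the mutants. By chromosome, called genes were spread over all 6, from 6.43% lower on X to 12.8% on I and from 3.11% higher on I to 6.48% on V. The share on III, which carries sma-3, was 12.66% lower and 3.24% higher.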

How the data were processed

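Poly-A RNA of whole L2 larvae was sequenced. The authors deposited raw counts per gene, and beside them CPM, which equal each count over its library total and served only as a check. Per the submitters' processing notes, bcl2fastq, STAR 2.5.2b, featureCounts 1.5.2 and limma were used, with build WBcel235. All 15 count columns were mapped to samples, and 0 columns of sample values were left unmapped. Genes passing filterByExpr (minimum count 10) were fitted in edgeR 4.0.16 (R 4.3.3) over all 15 libraries with TMM factors, and sma-3 was contrasted with the wild type by the quasi-likelihood test with Benjamini-Hochberg adjustment. Alternatives were other scalings and filters, DESeq2 1.42.0, limma-voom (limma 3.58.1), an exon length trend (Ensembl release 115), a replicate block and each library left out. Members and gene lists were chosen with earlier results of these data known, and symbols of other proteins caught by 2 name patterns were removed after values had been seen. Genes were named by size (the 12 largest changes each way without overlap), by p (12 abundant genes each way under 2-fold, up to 4 called per list, 6 each that depend on wild type replicate 5) and as DBL-1 pathway members; a list without calls is shown by its most abundant member. Precision is lowest for genes with few counts. The authors' own comparison columns were not used.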

Additional observations from a re-analysis of the deposited data

Results flagged for a closer look

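Within each genotype, 48 of 618 sets of 5 values, covering the genes named here and the mean of each list with at least 10 tested members, had 1 library far from the other 4, so that its gap to the nearest exceeded 0.71 of the whole range. Chance flags about 1 in 20 such sets. Of these libraries, wild type replicate 5 was the one in 22 sets and sma-3 replicate 5 in 10, against at most 5 for any other. These sets are no sample of all genes: C18E9.7, C27A2.12, cdh-8 and ZK899.2 were named because their call depends on wild type replicate 5, and cysl-2 after its values were seen.

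Wild type replicate 5 stood above its group in C18E9.7 (75.3 CPM), C27A2.12 (24.2 CPM), ZK899.2 (47.1 CPM), avr-14 (30.1 CPM), cdh-8 (54.1 CPM) and oac-34 (6.74 CPM). It stood below its group in C44C1.6 (3.69 CPM), cysl-2 (39.9 CPM), daf-22 (182 CPM), elt-2 (37.9 CPM), far-2 (205 CPM), idh-1 (871 CPM) and pcyt-1 (92.3 CPM). Among list means, given as the difference in mean log2 CPM from the wild type, it was the highest for endoplasmic reticulum and secretory pathway (0.0726), cuticlins and other apical matrix proteins (0.205), molting regulators (0.193), patched-related proteins (0.201) and acyltransferases of the oac family (0.271). It was the lowest for mitochondrial ribosomal proteins (-0.148), tricarboxylic acid and glyoxylate cycles (-0.122), RNA polymerases, Mediator and general factors (-0.0872) and intestine markers (-0.0899). For elt-2, far-2, idh-1, cysl-2, pcyt-1 and daf-22 the value lay on the side of the mutants, which had lower levels of each.

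Other wild-type libraries stood highest in cutl-11 (5.4 CPM) in wild type replicate 2, T24B8.5 (4.03 CPM), lbp-6 (809.9 CPM), ttr-51 (59.6 CPM) and vit-6 (80.2 CPM) in wild type replicate 3 and srw-85 (41.6 CPM) in wild type replicate 4. sma-3 replicate 5 stood above the other mutant libraries in C44C1.6 (2.53 CPM) and below them in dylt-1 (29.7 CPM), fbn-1 (168 CPM), iftb-1 (158 CPM), nars-1 (144 CPM), pbs-3 (82.4 CPM) and prdx-6 (24.3 CPM). sma-3 replicate 4 stood above the other mutant libraries in bbs-2 (4.89 CPM) and jmjd-5 (22.8 CPM) and below them in col-157 (49.1 CPM). sma-3 replicate 2 stood above the other mutant libraries in crt-1 (2592 CPM) and lon-1 (225 CPM). sma-3 replicate 9 stood above the other mutant libraries in oac-30 (18.3 CPM) and below them in mrpl-50 (60.7 CPM). Among the list means, wild type replicate 1 was highest for heterochronic genes (0.0476), sma-3 replicate 4 was highest for glucuronosyl and glutathione transferases (0.034), sma-3 replicate 4 was lowest for CUB-like and other pathogen response genes (0.0206) and sma-3 replicate 5 was lowest for aminoacyl-tRNA synthetases (-0.236), lipid regulators and one-carbon metabolism (-0.0821) and nuclear pore and transport (-0.186).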

How the results depend on the processing

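Against 1997 genes called (603 higher, 1394 lower, 1898 under 2-fold, 99 at least 2-fold), library totals gave 1414 higher and 731 lower, so the balance of directions depended on the scaling. A test against a minimum fold of 1.2 called 107 genes (40 higher, 67 lower, 59 under and 48 at least 2-fold). An adjusted p under 0.01 called 606 (127 higher, 479 lower, 549 under and 57 at least 2-fold), and 1312 of 3069 without wild type replicate 5. Leaving out each library in turn gave 1156 to 3069 calls, 345 to 1237 higher, 794 to 1832 lower, 1067 to 2907 under and 89 to 162 at least 2-fold, with the most calls without wild type replicate 5. The total stayed within 1.5 times of 1997 with RLE factors (1992), no low-count filter (1922), a filter of 1 CPM in 5 libraries (1994), DESeq2 (2433), limma-voom (2165), only the 10 libraries compared (1658) and the exon length trend removed (1646). The log2 fold change of sma-3 lay between -1.49 and -1.37 over the single libraries left out. Of the other 218 called genes named here none reversed; 7 to 36 lost their call without a single library, 22 with library totals, 26 without the length trend, 58 with the replicate block and 45 from the same libraries unblocked. The cause of these differences was not tested.

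Genotypes share the replicate numbers 2, 3, 4 and 5. The deviations of same-numbered libraries correlated between -0.022 and 0.075, within the span of the other pairs (-0.237 to 0.165). Since no pair is known to share handling, these values cannot tell whether the numbers pair the samples, and the labels do not say. With a replicate block over those libraries 806 genes were called (212 higher, 594 lower, 738 under 2-fold), and 1004 (309, 695 and 922) from the same libraries without the block. Counts of low genes limit the precision of their fold changes, and most genes at least 2-fold apart were scarce.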

Other observations

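Genes of oxidative and metal stress gave 5 lower and 2 higher of 32 with TMM scaling, near the balance of all called genes. With library totals they gave 3 lower and 2 higher, where all called genes were mostly higher. Over the single libraries left out, 2 (without wild type replicate 2) to 7 (without wild type replicate 5) were lower. prdx-6, of the peroxiredoxin family, was at 37.4, 36.1, 39, 32.5 and 30.7 CPM in the wild type and 27, 27.5, 27.3, 24.3 and 26.9 CPM in the mutants (log2 fold change -0.40 ± 0.07, adjusted p = 0.0014). sod-2, a mitochondrial superoxide dismutase, fell by 0.22 on the log2 scale and trx-2, a mitochondrial thioredoxin, by 0.33. In the opposite direction sod-3, also a mitochondrial superoxide dismutase and named after its value was seen, went from 3.2 ± 0.817 to 5.22 ± 1.25 CPM (log2 fold change 0.68 ± 0.18, adjusted p = 0.021).

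Tubulin, kinesin and dynein genes divided, with 5 higher and 4 lower of 46 with TMM scaling and 9 and 1 with library totals. Without wild type replicate 3, 1 was lower with TMM scaling. Beside tba-5, the kinesin gene klp-3 rose by 0.24, while the tubulin gene tba-7 and the dynein light chain gene dylt-1 fell by 0.37 and 0.27. tba-7 overlaps T28D6.3 on the opposite strand, and both fell. Pharynx markers gave 2 higher of 16, phat-5 (0.81 ± 0.17) and phat-2 (0.27 ± 0.09). Transthyretin-related genes gave 3 lower of 44, a share below that of all genes, ttr-51 (-0.35), ttr-25 (-0.27) and ttr-20 (-0.33). With library totals, or without wild type replicate 3, 0 of them were lower. Of all called genes 1366 (68.4%) belonged to none of the lists.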
